A study of Saccharomyces cerevisiae with 8 samples.

Results

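Ribosome footprints of all genes were compared between yeast grown with 10 µM added spermidine and yeast grown with none. The comparison uses the 4 footprint libraries of a series of 8, chosen by their labels as footprints at 0 or 10 µM spermidine, 2 replicates of each. The count table lists 5545 genes, of which 5488 passed a filter on low counts and were tested. All cultures were one strain of Saccharomyces cerevisiae, MATa ura3-52 leu2 with both SPE1 and SPE2 replaced by LEU2, so the libraries without added spermidine come from the same double deletion and not from wild type. Cells were grown in synthetic dextrose medium at 30 °C from an OD of 0.025 to 0.6 to 0.7, and footprints of 17 to 34 nucleotides were sequenced. The other 4 libraries hold total RNA of the same 2 conditions. The labels do not say that replicates were separate cultures, so p-values measure the spread between these libraries, which may be technical.

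Polyamines are small, positively charged molecules that bind RNA and ribosomes. SPE1 encodes ornithine decarboxylase and SPE2 encodes S-adenosylmethionine decarboxylase, both needed to make spermidine, so the strain must take its polyamines from the medium. Spermidine also donates the side chain of hypusine, a modified amino acid found in the translation factor eIF5A, which helps ribosomes through difficult peptide bonds and at stop codons. In ribosome profiling, the stretches of mRNA covered by ribosomes are sequenced, so a gene's footprint count follows both how much of its mRNA is present and how many ribosomes sit on it.

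Footprint counts summed to 5038682 and 7089928 per library without spermidine and to 3324344 and 4272944 with it, so both libraries with spermidine were shallower, and the part of depth in the changes was not tested. Levels are given as counts per 1e6 (CPM) of totals adjusted for composition, and they follow gene length, so they are compared between conditions and not between genes. Replicates had a Pearson correlation of log2 CPM across genes of 0.991 without and 0.989 with spermidine. SPE1 had 3.02 and 1.99 CPM without and 1.25 and 1.71 CPM with spermidine and SPE2 had 9.06 and 8.82 CPM without and 5.95 and 7.34 CPM with spermidine, low in all 4 footprint libraries, while LEU2, which took the place of both, had 1704 and 1724 CPM without and 2266 and 2532 CPM with spermidine. Genes of MATa cells were read and genes of the other mating type were close to 0: STE2, the receptor of a cells, had 452 and 453 CPM without and 559.8 and 507 CPM with spermidine, and STE3, its counterpart in α cells, had 1.81 and 2.13 CPM without and 3.13 and 2.45 CPM with spermidine.

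With spermidine, footprints rose on 1025 genes and fell on 1093 (quasi-likelihood F-test of edgeR, with p adjusted after Benjamini and Hochberg, threshold 0.05). That is 18.7% higher and 19.9% lower, 38.6% of the 5488 genes tested, which is the background for every count that follows. Calls were more frequent on genes with more footprints. With genes split into 5 classes of mean footprint CPM, 14.66% of the lowest class rose and 8.56% fell. In the highest class 24.95% rose and 29.96% fell. The background is not matched for level, and gene groups were not tested against genes of their own level. The replicates of 72.6% of genes did not overlap between conditions. Among called genes this held for all 1025 rises and all 1093 falls. A gap between the libraries of a called gene is therefore no further test of its change. In RNA, 8.36% of genes rose and 13.4% fell, 21.7% in all. Most changes were small. A rise of more than 2-fold was seen on 265 of these genes and a fall of more than 2-fold on 197. The median change of all tested genes was -0.02 on the log2 scale. Scaling sets the typical gene close to no change, so this median is no result. Rises and falls are relative to other genes, and a change common to all genes cannot be seen. The calls came from 2 footprint libraries against 2, with the spread estimated from all 8 libraries, RNA included. With the footprint libraries alone 2264 genes were called. With any 1 footprint library left out, 1395 to 1490 genes were called, the fewest without replicate 2 at 0 µM. Of the 2118 calls, 1013 were kept in every one of 17 other settings. Gene groups are therefore described by their count, by that count with 1 footprint library left out, given for each library whose absence moved it by more than 1.5 times, and by how many members kept the call in every setting. Single genes named below kept their call in all of these settings unless a loss is given.

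**Figure D1:**
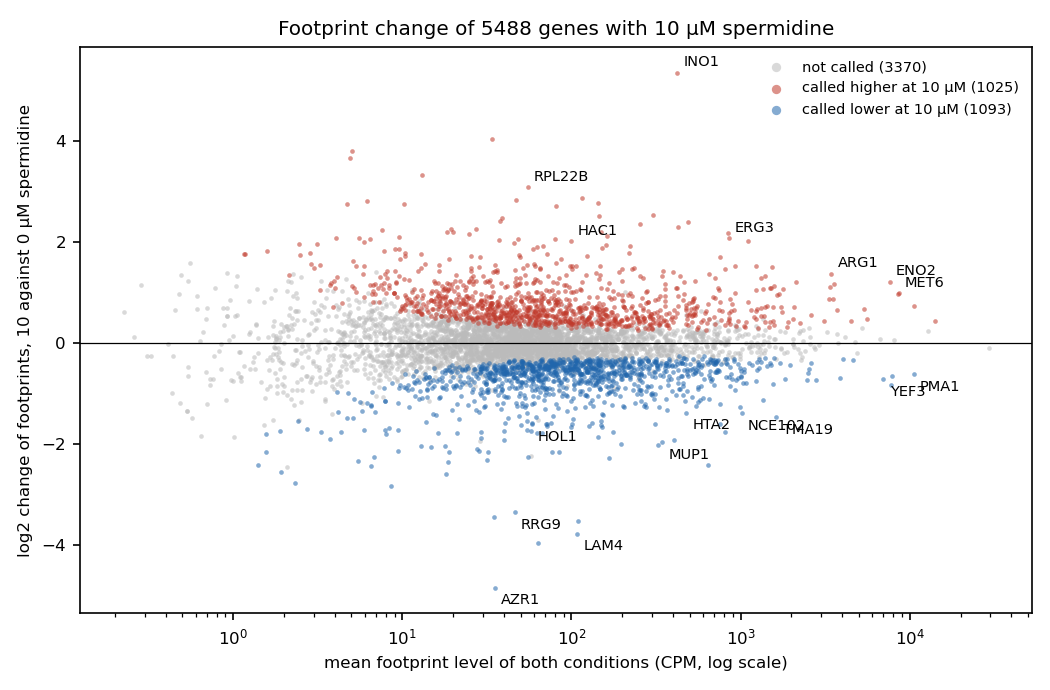
Log2 change of footprints (vertical, 10 against 0 µM spermidine) against the mean footprint level of both conditions (horizontal, CPM, log scale) for 5488 genes, coloured by call. The 1025 rises and 1093 falls lie at every level and are most frequent in the highest of 5 level classes. INO1 is the highest point at 5.36 and AZR1 the lowest at -4.84.

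The size of the shift can be read as the percentage of footprints that would have to move from some genes to others to turn the average library of one condition into that of the other. Between conditions it was 15.3%. Between the 2 replicates it was 3.95% without and 4.46% with spermidine, and the 4 single pairs across conditions gave 15.2% to 15.8%. The shift was spread over many genes: the 187 genes with the largest gains made up 50% of the summed gain, and 187 genes made up 50% of the summed loss.

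Counted in footprints, ribosomes moved towards glycolysis and arginine, sulfur and sterol synthesis and away from ribosomal proteins, the cell surface and histones. Genes of glycolysis and fermentation took up 9.55% and 9.41% of all footprints without and 12.1% and 11.9% with spermidine. Those of sulfate assimilation and methionine synthesis took up 1.56% and 1.59% of all footprints without and 2.55% and 2.40% with spermidine. Ergosterol synthesis held 0.821% and 0.825% of all footprints without and 1.61% and 1.51% with spermidine, and arginine synthesis 0.622% and 0.667% of all footprints without and 1.27% and 1.69% with spermidine. In all of these both libraries with spermidine lay above both without.

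In the other direction, 138 cytosolic ribosomal protein genes held 10.4% and 10.7% of all footprints without and 8.19% and 8.60% with spermidine. Cell wall proteins and enzymes held 4.98% and 4.67% of all footprints without and 3.72% and 3.55% with spermidine, and translation factors 3.03% and 3.06% of all footprints without and 2.29% and 2.31% with spermidine. The plasma membrane proton pump and the proteins of the eisosome, a furrow of the plasma membrane, held 2.04% and 1.97% of all footprints without and 1.32% and 1.22% with spermidine. Core and linker histones held 0.503% and 0.532% of all footprints without and 0.262% and 0.298% with spermidine. Here both libraries with spermidine lay below both without. For each of these shares the exact permutation test cannot go below p = 0.333, the smallest value that 2 against 2 allows. Shares of most other gene groups also did not overlap between conditions, so the gap is not particular to the groups named here.

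**Figure D2:**
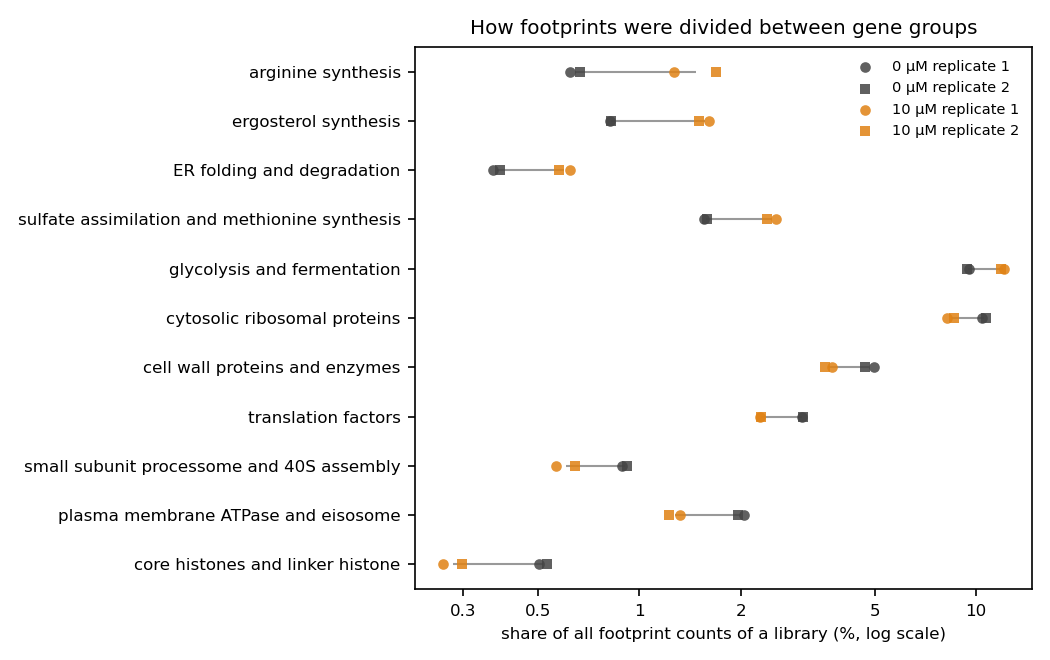
Share of all footprint counts of a library (horizontal, %, log scale) held by 11 gene groups, with circles for replicate 1 and squares for replicate 2, grey without and orange with 10 µM spermidine, and a line joining the means. In all 11 groups the grey and orange symbols do not overlap, which also held for most gene groups not drawn. Arginine synthesis shows the largest ratio of the groups drawn, 2.29.

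The largest single gains fell on genes of glycolysis, sulfur metabolism and arginine synthesis, among others. ENO2 (YHR174W, chromosome VIII, 451327 to 452640, in coordinates of the build R64), a glycolytic enolase, had 4362 and 4778 CPM without and 10568 and 10710.2 CPM with spermidine. Both libraries with spermidine were above both without, a log2 change of 1.22 with an SE of 0.09 and an adjusted p from edgeR of 2.8e-05. PGK1, phosphoglycerate kinase, went from 5839 and 5816 to 11380.1 and 11676 CPM and MET6, methionine synthase, from 5679 and 5877 to 12019 and 10755 CPM. ARG1, argininosuccinate synthetase, went from 1869 and 1955 to 4285 and 5649 CPM, a log2 change of 1.38 with an SE of 0.15 and an adjusted p from edgeR of 1.4e-04. The 12 largest gains in CPM also held FBA1 (aldolase), GPM1 (phosphoglycerate mutase), CDC19 (pyruvate kinase), MET17, SAH1 and SAM2 of sulfur metabolism, DLD3, a relative of lactate dehydrogenases, and the peroxiredoxin AHP1, with log2 changes from 0.45 for CDC19 to 1.16 for MET17. The calls of CDC19 and AHP1 (0.47) were lost in at least 1 other setting.

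The largest losses fell on abundant surface and translation genes. PMA1, the proton pump of the plasma membrane, had 12994 and 12603 CPM without and 8809 and 7926 CPM with spermidine, a log2 change of -0.61 with an SE of 0.11 and an adjusted p from edgeR of 0.0019. YEF3, the fungal translation elongation factor eEF3, went from 8728 and 8671 to 5286 and 5289.8 CPM, a change of -0.72 with an SE of 0.09 and an adjusted p from edgeR of 3.7e-04. In both genes the replicates lay close together and the conditions apart. CCW12, a cell wall mannoprotein, went from 10968 and 9010.3 to 5632 and 5575 CPM and TMA19, a ribosome-associated protein, from 2449.6 and 2329.8 to 868 and 863 CPM. Others among the 12 largest losses were the cell wall genes SED1 (-0.65), FKS1 (-0.74), GAS1 (-0.73) and ECM33 (-0.59), the pyrimidine enzyme URA2 (-0.70), the ribosomal protein gene RPS14A (-1.12) and NCE102 (-1.39) of the eisosome.

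Of all genes, INO1 rose most (YJL153C, chromosome X, 134332 to 135933), encoding inositol-3-phosphate synthase, the first enzyme of inositol synthesis. Its footprints were 15.7 and 23.9 CPM without and 836 and 814 CPM with spermidine, and its RNA was 29.7 and 33.1 CPM without and 459 and 422 CPM with spermidine. Both measures were far apart between conditions, with a log2 change of 5.36 with an SE of 0.17 and an adjusted p from edgeR of 3.6e-07 in footprints and 3.80 in RNA. The change in footprints exceeded that in RNA by 1.55, adjusted p = 0.016. Other large rises were those of HES1, an oxysterol-binding protein homologue (1.01 and 0.427 CPM without and 11.9 and 6.36 CPM with spermidine), and RPL22B, the minor copy of a ribosomal protein gene (11.1 and 11.95 CPM without and 94.3 and 103 CPM with spermidine). HES1 rested on 5 and 3 reads without spermidine. It rose by 3.66 on the log2 scale with an RNA change of 0.04 (adjusted p = 0.95), and RPL22B by 3.09 with an RNA change of 1.2001. RPL22A and RPL22B together had 929 and 909 CPM without and 871 and 931 CPM with spermidine, so the sum of both copies differed little between conditions. ADH4 (2.87) and ADH5 (2.84), minor alcohol dehydrogenases, and AMS1 (2.78), the vacuolar α-mannosidase, also rose more than 4-fold.

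The footprints of AZR1 fell most. YER053C-A and LAM4 followed. AZR1 (YGR224W, chromosome VII, 942806 to 944647) encodes a transporter at the plasma membrane, and LAM4 (YHR080C, chromosome VIII, 262801 to 266838) a protein that moves sterols at contacts between the endoplasmic reticulum and the plasma membrane. AZR1 had 74.7 and 61.8 CPM without and 2.19 and 2.45 CPM with spermidine, and LAM4 had 188 and 215 CPM without and 15.3 and 14.2 CPM with spermidine. With spermidine AZR1 was down to 7 and 10 reads. RNA of both genes showed no such gap: AZR1 RNA was 8.61 and 8.20 CPM without and 8.88 and 7.18 CPM with spermidine, and LAM4 RNA 96.6 and 97.0 CPM without and 78.9 and 83.1 CPM with spermidine. The log2 change of footprints was -4.84 with an SE of 0.22 and an adjusted p from edgeR of 1.6e-06 for AZR1, with -0.06 in RNA, and -3.77 with an SE of 0.13 and an adjusted p from edgeR of 3.6e-07 for LAM4, with -0.26 in RNA. RRG9, needed to keep the mitochondrial genome, went from 79.8 and 88.7 to 8.77 and 7.83 CPM in footprints, with an RNA change of -0.13. By contrast AQY2, a water channel gene that overlaps its neighbour YLL053C by 50 bp, fell by similar values in both: -3.44 in footprints and -3.41 in RNA. YER053C-A, a small gene, changed by -3.96 and -3.59. ARV1, linked to sterol and sphingolipid traffic, had 50.2 and 354 CPM without and 13.8 and 21.0 CPM with spermidine. The second library without spermidine was far above the first, and the log2 change of -3.53 became -1.48 without it.

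**Figure D3:**
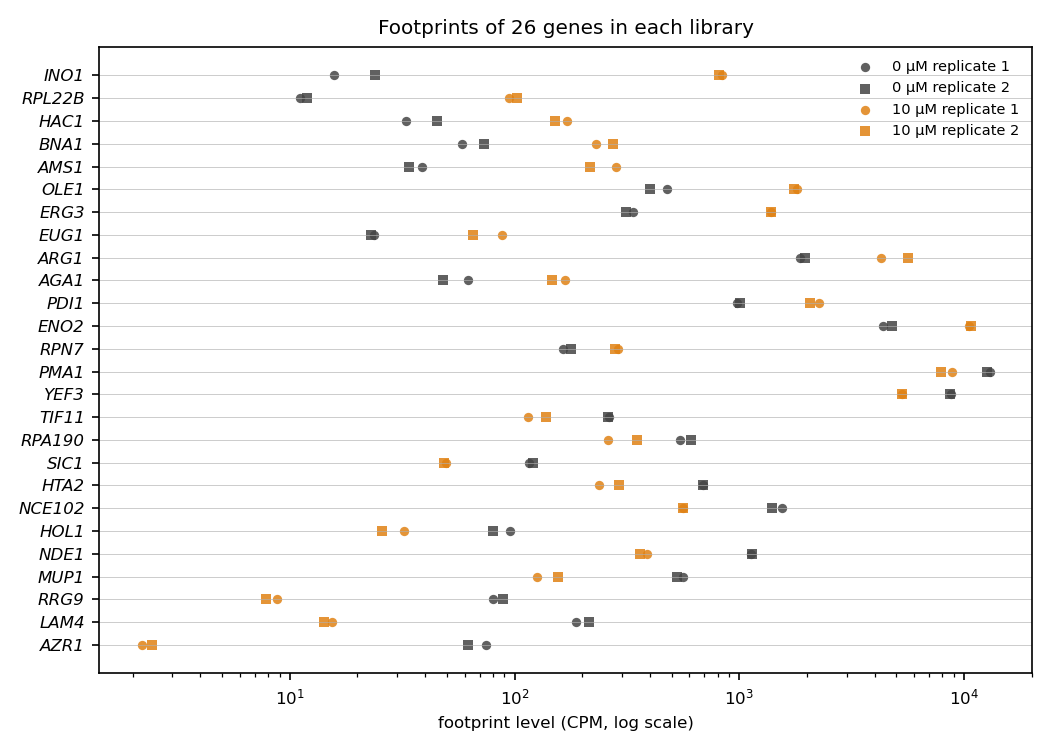
Footprint level (horizontal, CPM, log scale) of 26 genes in each library, grey without and orange with 10 µM spermidine, circles for replicate 1 and squares for replicate 2. Grey and orange symbols do not overlap for any of the 26 genes, which were drawn from genes called in the comparison, so this separation is no test.

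Sterol synthesis genes mostly rose: 21 of 25 ergosterol genes rose and 0 fell, with a median log2 change of 0.81. With any 1 footprint library left out 18 to 21 rose, and 18 did so in every setting. ERG3, the C-5 sterol desaturase, had 335 and 315 CPM without and 1381 and 1377 CPM with spermidine, both libraries with spermidine far above both without (log2 change 2.09 with an SE of 0.11 and an adjusted p from edgeR of 3.8e-06). ERG6 (1.70), the sterol methyltransferase, ERG1 (1.47), squalene epoxidase, ERG25 (1.34), the C-4 methyl sterol oxidase, and ERG11 (1.07), lanosterol demethylase, rose as well. RNA of 15 ergosterol genes rose, with a median of 0.48.

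In fatty acid synthesis and desaturation, 6 of 20 genes rose and 1 fell. OLE1, the only fatty acid desaturase of yeast, had 476 and 399 CPM without and 1803 and 1748 CPM with spermidine, well separated, a log2 change of 2.02 with an SE of 0.13 and an adjusted p from edgeR of 1.4e-05. MGA2 (1.04), a membrane-bound activator of OLE1, ACB1 (1.04), the acyl-CoA binding protein, and PHS1 (1.02), a dehydratase of fatty acid elongation, also rose. Among phospholipid genes 10 of 30 rose (5 without replicate 1 at 0 µM or replicate 1 at 10 µM) and 1 fell. The rises were INO1, OPI3 (1.203), a phospholipid methyltransferase, PGS1 (0.90), which makes phosphatidylglycerolphosphate, and 7 smaller ones. Each of these 7 was lost in at least 1 setting. The choline transporter HNM1 fell (-0.61). In sphingolipid synthesis 2 of 24 rose (1 without replicate 1 at 0 µM or replicate 2 at 0 µM) and 5 fell, among them AUR1 (-1.08), which makes inositol phosphorylceramide, and IPT1 (-0.83), which adds the last inositol phosphate. Among 22 genes of sterol transfer, esterification and their regulation 4 rose and 6 fell, including PRY1 (-1.03) and PRY2 (-1.17), secreted sterol-binding proteins.

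All 10 tested genes of arginine synthesis had higher mean footprints and 8 of them rose, in every setting, with a median of 1.28. CPA1, the small subunit of carbamoyl phosphate synthetase, had 256 and 247 CPM without and 534 and 720.5 CPM with spermidine (log2 change 1.32 with an SE of 0.14 and an adjusted p from edgeR of 1.3e-04). ARG5,6, which encodes 2 enzymes of ornithine synthesis in 1 precursor, changed by 1.52, and ORT1, the mitochondrial ornithine carrier, by 1.504. In sulfur metabolism 8 of 25 genes rose (5 without replicate 1 at 0 µM) and 4 fell (2 without replicate 1 at 0 µM, replicate 2 at 0 µM or replicate 1 at 10 µM). SUL1 (2.19), a sulfate permease, MET3 (1.37), ATP sulfurylase, and MET17 (1.16), which fixes sulfide into homocysteine, rose, while SUL2 (-0.48), the other sulfate permease, fell.

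Lysine synthesis had 4 rises and 1 fall (0 without any 1 of the 4 footprint libraries) among 9 genes. LYS20 (0.90) and LYS21 (1.09), both homocitrate synthases with near-identical sequence, together had 936 and 1003 CPM without and 1761 and 2099.8 CPM with spermidine. Of 14 genes of aromatic amino acid synthesis 7 rose (4 without replicate 2 at 10 µM) and 0 fell, for example ARO2 (0.89), chorismate synthase. SER3 (2.39), which makes serine, rose, and the genes of the glycine decarboxylase subunits GCV1 (-1.24), GCV2 (-1.32) and GCV3 (-0.58) fell; SER3 shares 77 bp with the noncoding SRG1. Branched-chain amino acid genes showed 2 rises (1 without any 1 of the 4 footprint libraries) and 6 falls (3 without replicate 1 at 0 µM, 2 without replicate 2 at 0 µM and 1 without replicate 1 at 10 µM) among 11, of which 1 fall (LEU9, -1.43) held in every setting. The cytosolic transaminase BAT2 rose (1.47), while its mitochondrial counterpart BAT1 had a change of -0.42 that was lost in at least 1 setting. Both copies summed to 1141 and 1270.4 CPM without and 1074 and 1156 CPM with spermidine.

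In NAD synthesis 7 of 14 genes rose and 0 fell. BNA1, of the pathway from tryptophan, had 58.2 and 73.4 CPM without and 231 and 274 CPM with spermidine, a log2 change of 1.94 with an SE of 0.14 and an adjusted p from edgeR of 1.8e-05, and BNA2 (2.20), BNA4 (1.46) and BNA6 (1.85) of the same pathway rose too. BNA2 overlaps the next gene by 17 bp. Among genes for vitamin B6, thiamine and biotin 8 of 20 rose and 2 fell (0 without replicate 1 at 10 µM). The rises were led by SNZ1 (1.92) and SNO1 (1.86) for vitamin B6 and BIO2 (1.91), biotin synthase. Genes under nitrogen catabolite repression showed 11 rises (7 without replicate 2 at 10 µM) and 3 falls (1 without replicate 1 at 0 µM, replicate 1 at 10 µM or replicate 2 at 10 µM) among 36, with UGA1 (2.51), the 4-aminobutyrate transaminase, and GLN1 (0.94), glutamine synthetase, up and the proline permease PUT4 (-2.03) down.

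In the endoplasmic reticulum 12 of 23 folding and degradation genes rose and 1 fell, 9 to 11 rising with 1 footprint library left out. PDI1, protein disulfide isomerase, had 978 and 1003 CPM without and 2258 and 2060.2 CPM with spermidine, both libraries with spermidine above both without (log2 change 1.12 with an SE of 0.09 and an adjusted p from edgeR of 3.2e-05). EUG1 (1.70) and EPS1 (1.46), relatives of PDI1, ERO1 (0.99), the oxidase that feeds them, and LHS1 (0.78), an Hsp70 of the lumen, rose. HAC1, the transcription factor of the unfolded protein response, whose unspliced mRNA is held back from translation, had 32.8 and 45.4 CPM without and 170.4 and 151 CPM with spermidine in footprints and 898 and 726 CPM without and 502 and 435 CPM with spermidine in RNA. Its footprints rose (2.03) while its RNA fell (-0.79, edgeR adjusted p = 0.0064).

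Proteasome genes moved by little but mostly one way: 20 of 37 rose and 1 fell, with a median of 0.34, against 3 rises and 0 falls in RNA, with a median of 0.10. The rises numbered 9 without replicate 1 at 0 µM and 11 without replicate 2 at 10 µM, and 9 held in every setting. The test of the difference between footprint and RNA change called 1 of the 37 genes, higher in footprints. RPN7, a lid subunit, had 164 and 178 CPM without and 289 and 280.1 CPM with spermidine (0.73 with an SE of 0.10 and an adjusted p from edgeR of 4.6e-04), with no overlap. PRE5 (0.71) and PUP2 (0.70), subunits of the core, rose, and RPN13 (-0.63), a ubiquitin receptor, fell. Of 25 genes of vacuolar hydrolases and autophagy 2 fell (0 without replicate 1 at 0 µM and 1 without replicate 1 at 10 µM or replicate 2 at 10 µM) and 8 rose, including APE1 (1.43), aminopeptidase I, its receptor ATG19 (1.15) and PEP4 (0.998), vacuolar proteinase A. The vacuolar proton pump had 1 rise (0 without any 1 of the 4 footprint libraries) and 1 fall (2 without replicate 2 at 10 µM) among 14. That is 14.3% called, below the 38.6% of all tested genes.

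Genes of peroxide defence showed 15 rises and 5 falls among 29. The rises numbered 8 without replicate 2 at 10 µM, and the falls 3 without replicate 1 at 0 µM or replicate 2 at 0 µM and 2 without replicate 2 at 10 µM. The peroxiredoxin TSA2 (2.47), the thioredoxin TRX1 (0.85) and the peroxidase HYR1 (0.72) rose, and the cytosolic catalase CTT1 (-1.27) fell. Chaperones went both ways, 12 up and 7 down of 39. HSP60 (0.72), SSA1 (0.73), HSP82 (0.64) and the chaperonin subunits TCP1 (0.75) and CCT8 (0.67) rose. SSB1 (-0.79) and SSB2 (-0.67), near-identical Hsp70s bound to ribosomes, fell and together went from 2544 to 1535 CPM on average.

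**Figure D4:**
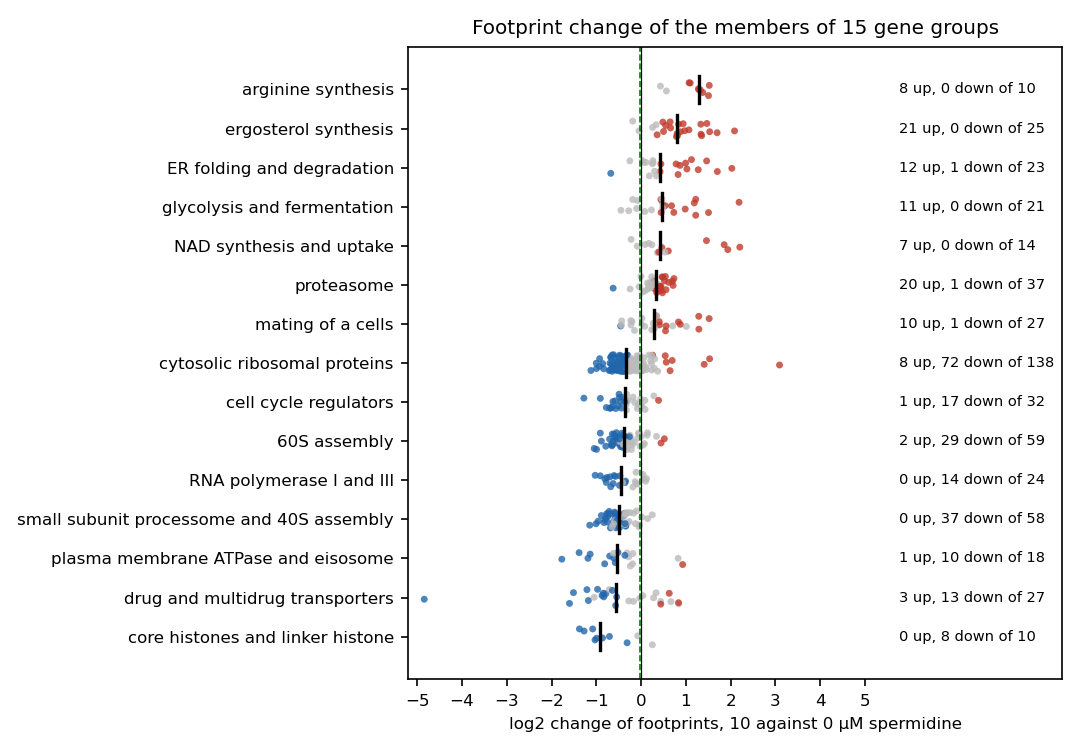
Log2 change of footprints (horizontal, 10 against 0 µM spermidine) of each tested member of 15 gene groups, red for rises, blue for falls and grey for genes not called, with a black bar at the group's median and a dashed line at the median of all genes. The black bar lies highest for arginine synthesis, at 1.28, and lowest for histones, at -0.93.

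Of 138 cytosolic ribosomal protein genes 72 fell and 8 rose in footprints, with a median of -0.35. The falls numbered 33 without replicate 2 at 0 µM and 35 without replicate 1 at 10 µM, and the rises 5 without replicate 2 at 0 µM. In RNA 116 fell and 3 rose, with a median of -0.63. The difference between footprint and RNA change was called on 10 of the 138, all higher in footprints. RPS14A had 1841 and 1874 CPM without and 854 and 854 CPM with spermidine and RPL6A had 1231 and 1209 CPM without and 618 and 665 CPM with spermidine, falls of -1.12 and -0.93. Both pairs of copies also fell in sum, RPS14A with RPS14B by a log2 ratio of -0.89 and RPL6A with RPL6B by -0.75. Among the rises were minor copies: RPL22B, RPS22B (1.53) and RPL9B (1.41), whose sums with the other copy had log2 ratios of -0.03, -0.31 and 0.06. How reads that match both copies were counted is not given in the sources used here, so values of single copies are uncertain. Among 75 mitochondrial ribosomal protein genes 16 rose and 4 fell, of which 3 and 1 held in every setting. That is 26.7% called, below the 38.6% of all tested genes. The rises numbered 3 without replicate 1 at 0 µM, 8 without replicate 2 at 0 µM, 9 without replicate 1 at 10 µM and 6 without replicate 2 at 10 µM, and the falls 1 without replicate 2 at 0 µM and 2 without replicate 1 at 10 µM or replicate 2 at 10 µM.

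Many genes for building ribosomes fell. Of 58 genes of the small subunit processome and 40S assembly 37 fell and 0 rose (1 without replicate 1 at 0 µM), 17 falling in every setting. The falls numbered 18 without replicate 2 at 0 µM and 17 without replicate 1 at 10 µM. NOP14, a processome protein, had 784 and 519 CPM without and 284 and 303 CPM with spermidine, both libraries with spermidine below both without (log2 change -1.15 with an SE of 0.17 and an adjusted p from edgeR of 7.1e-04). KRR1 (-1.01), ECM16 (-0.96), an RNA helicase, and RRP5 (-0.83) fell as well. In 60S assembly 2 of 59 rose (1 without replicate 1 at 0 µM, replicate 2 at 0 µM or replicate 1 at 10 µM and 0 without replicate 2 at 10 µM) and 29 fell (19 without replicate 1 at 0 µM, 14 without replicate 2 at 0 µM and 13 without replicate 1 at 10 µM, and 9 in every setting), among the falls BRX1 (-1.05), TIF6 (-0.67), which keeps the subunits apart, and RIX7 (-0.79), an ATPase. RNA polymerases I and III, which make ribosomal and transfer RNA, had 14 falls and 0 rises among 24 genes (8 without replicate 2 at 0 µM and 7 without replicate 1 at 10 µM, and 7 in every setting). RPA190, the largest subunit of RNA polymerase I, had 545 and 607 CPM without and 259.7 and 351 CPM with spermidine (-0.91 with an SE of 0.16 and an adjusted p from edgeR of 0.0022).

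Of 42 translation factors 20 fell (12 without replicate 2 at 0 µM or replicate 1 at 10 µM) and 3 rose (1 without replicate 2 at 0 µM, replicate 1 at 10 µM or replicate 2 at 10 µM). TIF11, which encodes eIF1A, had 262 and 260.0 CPM without and 115 and 138 CPM with spermidine (-1.04 with an SE of 0.12 and an adjusted p from edgeR of 1.7e-04), the lower values in both libraries with spermidine. SUP35 (-0.91) and SUP45 (-0.56), the release factors, DED1 (-0.66), a helicase of initiation, and TIF4631 (-0.62), eIF4G, fell. HCR1 (0.50), linked to eIF3 and to termination, was the rise that held in every setting. Aminoacyl-tRNA synthetases showed 10 falls and 2 rises (1 without replicate 1 at 0 µM or replicate 2 at 10 µM) among 22. The falls numbered 4 without replicate 1 at 0 µM, 1 without replicate 2 at 0 µM or replicate 1 at 10 µM and 6 without replicate 2 at 10 µM, and 1 held in every setting.

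Of 10 histone genes 8 fell and 0 rose, with a median of -0.93, and 7 fell in every setting. HTA2, a histone H2A gene, had 686 and 689 CPM without and 237 and 291 CPM with spermidine, both libraries with spermidine below both without (log2 change -1.38 with an SE of 0.11 and an adjusted p from edgeR of 3.9e-05). The gene copies of each histone summed to log2 ratios of -0.97 for H2A, -0.69 for H2B, -0.93 for H3 and -1.13 for H4. RNA of 8 of these genes fell, with a median of -1.08. Histone genes are active while DNA is copied. In a culture, fewer cells in a stage and less RNA or fewer ribosomes per cell cannot be told apart.

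Among 32 cell cycle regulators 17 fell and 1 rose (0 without replicate 1 at 0 µM, replicate 1 at 10 µM or replicate 2 at 10 µM). The falls numbered 10 without replicate 1 at 0 µM or replicate 2 at 0 µM, 7 without replicate 1 at 10 µM and 11 without replicate 2 at 10 µM, and 6 held in every setting. SIC1, an inhibitor of the cyclin-dependent kinase at the end of mitosis and in G1, had 116 and 121 CPM without and 49.5 and 48.4 CPM with spermidine (-1.28 with an SE of 0.12 and an adjusted p from edgeR of 6.8e-05), well apart. HSL1 (-0.91), a kinase of the morphogenesis checkpoint, NDD1 (-0.78), an activator of genes of mitosis, and the G1 cyclin CLN3 (-0.57) fell as well. In purine synthesis and ribonucleotide reduction 11 of 26 fell (5 without replicate 2 at 0 µM, 4 without replicate 1 at 10 µM and 6 without replicate 2 at 10 µM) and 3 rose (1 without replicate 1 at 0 µM or replicate 1 at 10 µM). IMD3 and IMD4, near-identical genes for the first step to GTP, together had 934 and 1039.9 CPM without and 484 and 497 CPM with spermidine. The ribonucleotide reductase subunits RNR1 (-0.72) and RNR2 (0.69) went opposite ways. In pyrimidine synthesis URA2 (-0.70), which starts the pathway, and the uracil permease FUR4 (-0.93) fell, and URA10 (2.76), a minor orotate phosphoribosyltransferase, rose.

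Of 18 genes of the plasma membrane proton pump and eisosome 10 fell and 1 rose. NCE102, an eisosome protein that senses sphingolipids, had 1543 and 1395 CPM without and 564 and 560.5 CPM with spermidine (-1.39 with an SE of 0.13 and an adjusted p from edgeR of 6.2e-05), both libraries with spermidine well below both without. SUR7 (-1.19), MRH1 (-0.81) and LSP1 (-0.58), membrane or eisosome proteins, fell, and PUN1 (0.93), a membrane protein, rose. Cell wall genes showed 15 falls and 9 rises among 35, so both directions held many members. The glucan enzymes SCW10 (-1.27), GAS1 and FKS1 fell, while the mannoproteins CWP1 (1.88), PIR3 (1.72) and TIP1 (1.33) rose.

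Amino acid permeases had 9 falls and 4 rises (2 without replicate 1 at 0 µM or replicate 2 at 0 µM and 1 without replicate 1 at 10 µM) among 22. MUP1, the high-affinity methionine permease, had 564 and 529.7 CPM without and 125 and 156 CPM with spermidine (-1.96 with an SE of 0.18 and an adjusted p from edgeR of 5.6e-05), without overlap. AGP1 (-1.61) and GNP1 (-1.15), permeases of broad range, and BAP2 (-1.26) and BAP3 (-1.72), for branched-chain amino acids, fell, and VBA1 (1.67), a vacuolar permease, rose. Of 27 drug and multidrug transporters and their regulators 13 fell and 3 rose (1 without replicate 2 at 0 µM or replicate 1 at 10 µM), with 10 to 12 falls when 1 footprint library was left out. Their median was -0.57 in footprints and -0.02 in RNA, where 6 fell and 2 rose. The test of the difference between footprint and RNA change called 1 of the 27, lower in footprints. PDR12 (-1.51), a pump for weak acids, PDR15 (-1.18) and PDR5 (-0.85) fell, with RNA changes of -0.32, -0.26 and -0.59.

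HOL1, the polyamine transporter named in the title of the series, had 95.1 and 80.0 CPM without and 32.3 and 25.7 CPM with spermidine (log2 change -1.60 with an SE of 0.15 and an adjusted p from edgeR of 5.9e-05), with an RNA change of -0.90. Of 21 genes of polyamine synthesis, breakdown and transport 8 fell (5 without replicate 1 at 0 µM) and 4 rose (2 without replicate 1 at 0 µM, replicate 2 at 0 µM or replicate 1 at 10 µM). TPO1 (-0.97), TPO2 (-1.21), TPO3 (-0.79) and TPO4 (-0.83), which export polyamines, fell in every setting, and AGP2 (0.84), a plasma membrane regulator of transport, rose. Genes for mating of a cells had 10 rises (4 without replicate 2 at 0 µM) and 1 fall (0 without replicate 2 at 0 µM or replicate 2 at 10 µM) among 27. AGA1, an anchor of the a-agglutinin, had 62.0 and 48.1 CPM without and 168 and 147 CPM with spermidine (1.52 with an SE of 0.14 and an adjusted p from edgeR of 5.7e-05), clearly apart, and FUS1 (1.29), needed for cell fusion, and BAR1 (1.29), the protease that cuts α-factor, rose too.

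In glycolysis and fermentation 11 of 21 genes rose and 0 fell (1 without replicate 2 at 10 µM), 10 rising in every setting, against 6 rises and 3 falls in RNA. The difference between footprint and RNA change was called on 1 of the 21, higher in footprints. TDH2 (2.19) and TDH1 (1.505), glyceraldehyde-3-phosphate dehydrogenases, rose most, but the 3 near-identical TDH genes summed to 13473 and 12268 CPM without and 18083 and 16846 CPM with spermidine. ENO1 with ENO2 summed to 5577 and 6116 CPM without and 13465 and 13758 CPM with spermidine. In both sums the conditions did not overlap. Minor alcohol and aldehyde dehydrogenases had 8 rises and 1 fall (0 without replicate 1 at 0 µM, replicate 2 at 0 µM or replicate 1 at 10 µM) among 12. The pentose phosphate pathway had 5 rises and 2 falls among 11, with ZWF1 (0.64) and GND1 (0.61), which make NADPH, up. Among 16 hexose transporters and sensors 2 rose (1 without replicate 1 at 0 µM, replicate 2 at 0 µM or replicate 2 at 10 µM) and 5 fell, with HXT7 down (-2.60); reads of HXT genes with near-identical sequence may be shared.

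Respiratory chain and ATP synthase genes had 15 falls and 1 rise (0 without replicate 1 at 0 µM, replicate 2 at 0 µM or replicate 1 at 10 µM) among 40, and 25 falls in RNA. The footprint falls numbered 9 without replicate 1 at 0 µM, replicate 2 at 0 µM or replicate 2 at 10 µM. The difference between footprint and RNA change was called on 1 of the 40, lower in footprints. NDE1, the external NADH dehydrogenase of mitochondria, had 1130.0 and 1139 CPM without and 387 and 361 CPM with spermidine (-1.60 with an SE of 0.10 and an adjusted p from edgeR of 1.1e-05), with a wide gap. CYT1 (-1.07) and RIP1 (-0.96) of the cytochrome bc1 complex fell. In the citric acid and glyoxylate cycles 6 of 24 rose and 3 fell (1 without replicate 1 at 0 µM, replicate 1 at 10 µM or replicate 2 at 10 µM). That is 37.5% called, not above the 38.6% of all tested genes. The rises included the peroxisomal citrate synthase CIT2 (1.09) and pyruvate carboxylase PYC1 (0.97). Iron uptake genes had 8 falls and 5 rises (2 without replicate 1 at 0 µM or replicate 1 at 10 µM) among 28: the reductase FRE1 (-1.61), the oxidase FET3 (-1.21) and the siderophore transporter ARN1 (-1.34) fell, and ENB1 (1.42), another siderophore transporter, rose. In heme synthesis 4 of 10 rose, with HEM13 at 1.53, and the 1 fall was ROX1 (-1.53), a repressor of HEM13.

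**Figure D5:**
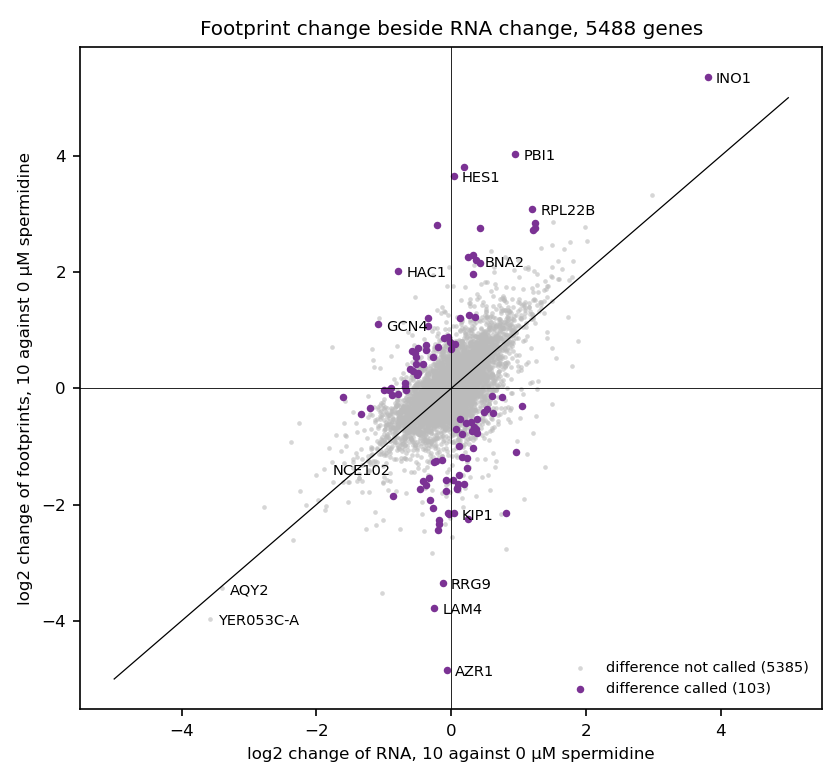
Log2 change of footprints (vertical) against log2 change of RNA (horizontal), 10 against 0 µM spermidine, for 5488 genes, with the diagonal of equal change. The 103 purple points are genes whose footprint and RNA changes differed by the edgeR test of the difference, with AZR1, LAM4 and RRG9 below and INO1 above the diagonal.

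Set beside RNA from the same conditions, 350 of the 1025 footprint rises (34.1%) were also RNA rises, which is 76.3% of the 459 genes whose RNA rose. Of the 1093 falls 497 (45.5%) were also RNA falls, 67.7% of 734. A gene called in footprints and not in RNA is not thereby shown to differ between them. The difference itself was called on 103 genes (1.88%), 52 with the footprint change higher and 51 lower.

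Among footprint falls, 48 also had a difference below RNA. Their median log2 change was -1.56 in footprints and 0.09 in RNA, and 41 of them had the call in footprints in every setting. These genes were selected by both calls, so the gap between the medians is no further result. The 10 with the highest footprint level without spermidine, named after their values were seen, included PRY3, a cell wall relative of PRY1 (-1.02 in footprints, 0.32 in RNA), the RNA helicase SEN1 of transcription termination (-1.25, -0.23), REF2 of mRNA 3′-end formation (-1.67, -0.37), FCP1, the phosphatase of RNA polymerase II (-1.85, -0.87), the spliceosome helicase BRR2 (-0.996, 0.11), VAC7 of the vacuole membrane (-1.58, 0.03), GIS2, an RNA-binding protein (-0.70, 0.07), and SDH4 of succinate dehydrogenase (-0.60, 0.22). LAM4 was among them, as was RAD9, a DNA damage checkpoint protein, whose RNA rose (-0.41, 0.48). REF2 had 229 and 232 CPM without and 61.1 and 83.2 CPM with spermidine, and BRR2 had 217 and 228 CPM without and 106 and 117 CPM with spermidine. In both genes the libraries with spermidine were lower without overlap.

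Among footprint rises, 38 also had a difference above RNA, with a median log2 change of 1.21 in footprints and -0.01 in RNA. This gap too follows from the selection by both calls. The 10 with the highest footprint level with spermidine, named in the same way, were GPM1 (0.68 in footprints, -0.002 in RNA), INO1, YNR071C (2.29, 0.32), ARO2 (0.89, -0.04), the ribosomal protein genes RPL12B (0.26, -0.49), RPP2B (0.65, -0.58) and RPS9A (0.54, -0.27), the cytosolic aspartate aminotransferase AAT2 (0.42, -0.42), BRO1 of endosomal sorting (1.23, 0.35) and PRE5 (0.71, -0.20). GPM1 had 4133 and 4171 CPM without and 6574 and 6726 CPM with spermidine in footprints and 3222 and 3024 CPM without and 3176 and 3060.4 CPM with spermidine in RNA. Its footprints did not overlap between conditions, and its RNA did. Calls in opposite directions were made on 14 genes. Footprints rose and RNA fell on 7, among them HAC1, AAT2 and GCN4, the activator of amino acid synthesis (1.101, -1.08). On 7 others footprints fell and RNA rose, among them RAD9 and NDE2, a relative of NDE1 (-1.90, 1.07). For NDE2 the difference between footprint and RNA change was not called (edgeR adjusted p = 0.064). The footprint calls of RAD9, NDE2, AAT2, RPL12B and RPP2B were each lost in at least 1 other setting, that of RPL12B in 10 of 17.

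Falls were more frequent on long genes. When genes were split into 5 classes of annotated length, 28.7% of the longest, 2133 to 14733 bp, fell and 9.32% rose in footprints, against 18.1% and 17.7% in the shortest class, 78 to 693 bp. In RNA the longest class had 11.7% falls and 6.39% rises. The median annotated length of the 48 genes whose footprints fell relative to RNA was 1813.5 bp, against 1255.5 bp for all tested genes. When a smooth trend of the change with length was removed, 1884 of the 2118 calls remained, and 34 genes of the small subunit processome and 40S assembly fell in place of 37. The part of read position along a gene in this trend was not tested, since the table holds 1 count per gene.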

How the data were processed

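The libraries hold ribosome footprints or total RNA of cultures under 2 conditions, 0 and 10 µM added spermidine, 2 libraries each. Libraries were grouped by their titles. The authors' deposited values are read counts, whole numbers for each gene. Per the submitters' processing notes cutadapt, Bowtie 1.2.2 and 1.1.2 and edgeR were named, with the builds R64 and sacCer3, without role or order. Strand, the part of a gene counted and the treatment of reads that match several genes were not given in the sources used here. Of 5545 gene identifiers 5543 matched RefSeq's R64 annotation, from which symbols, coordinates and lengths were taken, and 3 lines with no gene were left out. No gene sequences were used, so promoter motifs and proline runs are not analysed here.

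Counts were filtered with filterByExpr (minimum count 10, minimum total 15), scaled with TMM and fitted with edgeR 4.0.16 (R 4.3.3) as 4 groups of 2 libraries with 4 residual degrees of freedom. Contrasts were footprints with against without spermidine, the same in RNA, and the difference of both. Genes with a Benjamini-Hochberg adjusted p below 0.05 over all 5488 tested genes were called. On simulated counts of 5476 genes with 200 changed 2-fold, 79.9% of the changed genes that passed the filter were called, with 12 false calls. Far fewer genes changed there than were called in the data, and all by 2-fold. These rates need not hold for the data, where most called changes were below 2-fold. Footprint libraries held 3324344 to 7089928 counts and RNA libraries 1786419 to 2884632, and this depth limits what can be called on genes with few reads. Shares are percentages of all gene counts of a library, compared by an exact 2-sided permutation test. Sums over gene copies and medians over gene lists are descriptions.

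The members and gene lists were chosen with earlier results of these data known. Named genes are called genes without overlap between conditions: the 12 largest gains and losses in CPM, the 12 largest log2 rises and falls, up to 4 genes per list by lowest p, and HOL1, SPE1, SPE2, LEU2 and URA3; others are named as list members or as chosen after their values were seen. Alternatives were other scalings, filters, libraries and tools (DESeq2 1.42.0, limma voom 3.58.1), a replicate block, a length correction added after seeing the data, and each library left out in turn. Replicate numbers are not said to pair libraries.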

Additional observations from a re-analysis of the deposited data

Results flagged for a closer look

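The following genes had a footprint change that differed from their RNA change by the edgeR test of the difference (adjusted p below 0.05); values are footprint minus RNA change on the log2 scale, over 2 libraries per group. Footprints fell relative to RNA for AZR1 (-4.78), LAM4 (-3.52), RRG9 (-3.22), CNM1 (-2.23), PHO90 (-0.99) and RIX7 (-0.95). CNM1 changed by -2.43 in footprints and -0.20 in RNA. PHO90, a low-affinity phosphate transporter, changed by -0.66 in footprints and 0.33 in RNA.

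Footprints rose relative to RNA for the metabolic genes GPM1 (0.68), ARO2 (0.93), INO1 (1.55), ADH5 (1.59), BNA2 (1.83) and URA10 (2.33), the proteasome gene PRE5 (0.91), the mitochondrial import gene TOM6 (1.04), RPL22B (1.89), HAC1 (2.82) and HES1 (3.63). The same held for DCG1 (1.52), SPG3 (3.03), PBI1 (3.09) and RRT5 (3.62). PBI1 had 3.42 and 4.13 CPM without and 81.8 and 46.0 CPM with spermidine in footprints and 26.6 and 24.9 CPM without and 56.4 and 43.1 CPM with spermidine in RNA, and RRT5 had 0.604 and 0.712 CPM without and 5.33 and 13.5 CPM with spermidine in footprints. In both genes footprints with spermidine lay above those without in all libraries. RRT5 was near the floor without spermidine, and its values with spermidine lay far apart, so the size of its change is uncertain. SPG3 changed by 2.82 in footprints and -0.22 in RNA, and DCG1, of allantoin breakdown, by 2.76 in footprints and 1.25 in RNA. TOM6 changed by 0.66 in footprints and -0.38 in RNA.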

How the results depend on the processing

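Counts of calls depended most on the number of footprint libraries. With 1 library left out, 1395 to 2235 genes were called in place of 2118, 727 to 1154 higher and 668 to 1081 lower, the low ends coming from footprint libraries. Falls numbered 668 without replicate 2 at 0 µM, 682 without replicate 1 at 10 µM and 722 without replicate 2 at 10 µM. DESeq2 called 1479, of which 725 lower in place of 1093, and 1460 were shared with the 2118. With DESeq2 the falls numbered 16 in 60S assembly, 9 in RNA polymerases I and III, 6 in aminoacyl-tRNA synthetases, 11 in cell cycle regulators and 6 in purine synthesis, and the rises 3 in mitochondrial ribosomal proteins. Under the other scalings, filters and tools 1938 to 2264 genes were called. With a mean footprint count of at least 100 there were 793 higher and 1145 lower calls. The labels do not say that replicate numbers pair libraries. Deviations of same-numbered libraries correlated at 0.03 to 0.23 across genes, with 0.23 between the footprint groups. These values cannot settle whether the numbers pair libraries. Adding the replicate block gave 2364 calls, 1145 higher and 1219 lower, 2117 of them shared with the 2118. Leaving out the 10 most abundant genes moved the ratio of shares (10 over 0 µM) from 1.27 to 1.46 for glycolysis and fermentation, from 1.57 to 1.39 for sulfate assimilation and methionine synthesis and from 0.75 to 0.88 for cell wall genes. The cause was not tested. Of single genes, the fall of BAT1 and the rise of RPP2B were among calls lost with 1 library left out.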

Other observations

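In ER translocation and N-glycosylation 10 of 35 rose (5 without replicate 1 at 10 µM) and 3 fell. The falls numbered 1 without replicate 1 at 0 µM, replicate 2 at 0 µM or replicate 2 at 10 µM. In either direction 37.1% were called, not above the 38.6% of all tested genes. PMT3 (1.197), a protein mannosyltransferase, and ALG3 (0.93), of the lipid-linked sugar, were among the rises. Pantothenate and coenzyme A genes had 5 rises (3 without replicate 2 at 0 µM or replicate 2 at 10 µM) and 0 falls (1 without replicate 1 at 10 µM) among 12, led by CAB2 (1.74). Reserve carbohydrate and glycerol genes had 8 rises (5 without replicate 2 at 0 µM) and 2 falls among 23. The glycerol enzymes GPD1 (0.81) and GPP1 (0.87) rose, and GUT2 (-0.97), which uses glycerol, fell. GPD1 had 795 and 816 CPM without and 1475 and 1357 CPM with spermidine, without overlap.

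Genes for meiosis and sporulation, processes of diploid cells, had 9 rises and 5 falls (3 without replicate 1 at 10 µM or replicate 2 at 10 µM) among 45; with a mean footprint count of at least 100 there were 4 rises and 0 falls. SMA2, needed for spore membranes, had 18.1 and 12.2 CPM without and 1.88 and 2.20 CPM with spermidine. Both libraries with spermidine were near the bottom of the range. Zinc and copper transport had 3 rises and 2 falls among 11, with the plasma membrane zinc transporter ZRT1 up (0.71) and the vacuolar zinc transporter ZRC1 down (-0.75). Phosphate genes had 3 rises (1 without replicate 2 at 10 µM) and 3 falls among 18. Mitochondrial import genes had 3 rises and 3 falls (1 without replicate 1 at 0 µM or replicate 1 at 10 µM) among 34. Of 4 genes of eIF5A and its hypusine 0 rose and 1 fell, and that fall (LIA1, -0.48, deoxyhypusine hydroxylase) was lost in other settings (0 without replicate 1 at 0 µM, replicate 2 at 0 µM or replicate 1 at 10 µM). Proteins that regulate actin, many with proline-rich stretches, had 4 rises (2 without replicate 1 at 10 µM) and 4 falls (2 without replicate 2 at 10 µM) among 25.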
